A study of Mus musculus with 18 samples.

Results

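Canonical Wnt target and effector genes were followed in sorted mouse dermal fibroblasts. The genes were Axin2, Nkd1, Nkd2 and Sp5 (targets and feedback genes of the pathway), Lef1, Tcf7, Tcf7l1 and Tcf7l2 (the TCF/LEF factors), and Ctnnb1 (β-catenin). Of these 9 genes, 8 had a probe set that the platform annotation gives a single gene symbol, with 22 such probe sets in all, out of 18193 genes measured this way. Tcf7 was not analysed here. The tests used the brightest probe set of each gene (highest mean of the 18 arrays), and the other probe sets served as a check.

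The arrays were Affymetrix Mouse Genome 430 2.0 chips, with 3 arrays in each of 6 groups. In R26mTmG reporter mice, cells are red until Cre recombination turns them and all their descendants green, so colour records lineage and not current expression of the gene that drives Cre. ENF cells were red and not green and EPF cells were green and not red, both from dorsal dermis of En1Cre; R26mTmG mice, labelled as postnatal day 56. The study calls the green cells Engrailed-1 lineage-positive and the red cells Engrailed-1 lineage-negative fibroblasts. The Dorsal and Ventral groups were green, not red, cells from dorsal and ventral dermis of that genotype at postnatal day 30. Cranial cells (cranial dermis) and Oral cells (oral mucosa) were green and not red, from Wnt1Cre; R26mTmG mice at postnatal day 30, a lineage that includes the neural crest. The protocol text gives 30 days for the back skin fibroblasts, so the age of ENF and EPF is not settled. All mice were untreated. Sorting excluded dead cells by DAPI and cells positive for the blood vessel and blood cell proteins CD31, Tie2 and CD45, for the epithelial protein EpCAM, or for "Tie119", as the labels spell it. The labels do not say whether the arrays of a group came from separate animals or from pools, so p-values measure only the spread between these samples.

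In the canonical Wnt pathway, a Wnt ligand bound to Frizzled and LRP receptors stops the destruction complex from degrading β-catenin. β-catenin then enters the nucleus, binds TCF/LEF factors on DNA and turns on target genes. Several targets feed back on the pathway: Axin2 is a scaffold of the destruction complex, and Nkd1 and Nkd2 bind Dishevelled and dampen the signal. In skin, Wnt signalling specifies dermal fibroblasts in the embryo and acts between epidermis and dermal papilla when hair follicles form and cycle. The amount of a target transcript is often read as a sign of pathway activity, but β-catenin itself is regulated mainly at the protein level, which arrays do not measure.

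TCF/LEF factors bind short sites such as CTTTGAA, or the same letters with AT, TA or TT as the last bases. These 4 motifs, none of which can overlap another on the same strand, were searched on both strands in the 250 bases before each RefSeq gene start of the mouse build GRCm38.p6. The windows of 2 target genes are printed from 5′ to 3′ on the strand of the gene, with matches in capitals. Sp5 holds a pair of matches, and Axin2, the gene with the most called differences here, holds none. The Sp5 window lies at chr2:70474673-70474922 on the plus strand and the Axin2 window at chr11:108920099-108920348 on the plus strand.
Sp5: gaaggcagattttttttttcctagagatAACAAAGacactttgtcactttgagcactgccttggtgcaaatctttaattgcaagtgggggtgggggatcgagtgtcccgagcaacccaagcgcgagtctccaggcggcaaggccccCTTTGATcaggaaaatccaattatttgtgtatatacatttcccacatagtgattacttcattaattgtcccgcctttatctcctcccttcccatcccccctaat
Axin2: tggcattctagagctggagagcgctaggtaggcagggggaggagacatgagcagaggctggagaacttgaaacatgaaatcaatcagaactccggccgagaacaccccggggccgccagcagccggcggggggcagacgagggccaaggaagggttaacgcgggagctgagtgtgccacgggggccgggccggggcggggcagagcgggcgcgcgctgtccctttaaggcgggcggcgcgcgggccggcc
In Sp5, CTTTGTT lies on the opposite strand 222 bases before the start, so it is printed as its reverse complement, and CTTTGAT lies on the strand of the gene 104 bases before the start. The Nkd1 and Nkd2 windows held no match. Lef1 had a match (CTTTGTA) in 1 of its 4 windows and Tcf7l2 a match (CTTTGTT) in 1 of its 2 windows. In both genes this was the window of the start furthest downstream. Over all 32851 windows, 14.8% held at least 1 of the 4 motifs and 1.43% held 2 or more. Of the 15 windows of the 9 named genes, 3 held a match. A match is a description of letters only, and nothing was measured at these sites. Sequence outside these windows was not searched, so a window without a match does not show that a gene lacks such sites.

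Values are given as log2 expression from RMA, a method that combines the probes of a probe set, and levels of different genes cannot be set against each other. The lower quartile of an array lay between 3.93 and 4.10, and values at or below it were treated as near background. Arrays correlated across genes at 0.962 to 0.988 among ENF and EPF, at 0.946 to 0.998 among the other 4 groups, and at 0.872 to 0.926 between these sets. The 12 fibroblast markers had a summed level of 15.8 to 17.2 on all arrays, and the 9 T cell markers one of 8.77 to 9.69. The 10 endothelial markers summed to 10.6 to 11.7 in ENF, 10.1 to 11.5 in EPF and 8.22 to 9.55 elsewhere. Among them Pecam1 averaged 3.77 to 4.09 and Cdh5 4.01 to 4.23, while Kdr averaged 8.87 in ENF, 8.38 in EPF and 6.55 to 7.28 elsewhere, and Flt1 5.38 to 8.21, highest in Ventral. Tek, which encodes Tie2, averaged 10.46 in ENF and 10.20 in EPF but 3.75 to 4.27 in the other groups, and Epcam averaged 8.43 to 9.11 in the 6 groups, although sorting excluded cells positive for either protein. Summed keratinocyte markers reached 12.2 to 14.7 in ENF, 10.7 to 13.3 in EPF and 9.69 to 10.02 elsewhere. Summed markers of dividing cells were 9.23 to 11.99 in ENF, 8.09 to 9.08 in EPF and 11.34 to 13.52 elsewhere. Xist, transcribed from the inactive X chromosome, was low on ENF 1 (4.98) and EPF 2 (5.20) and between 10.48 and 12.13 on all other arrays.

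**Figure D1:**
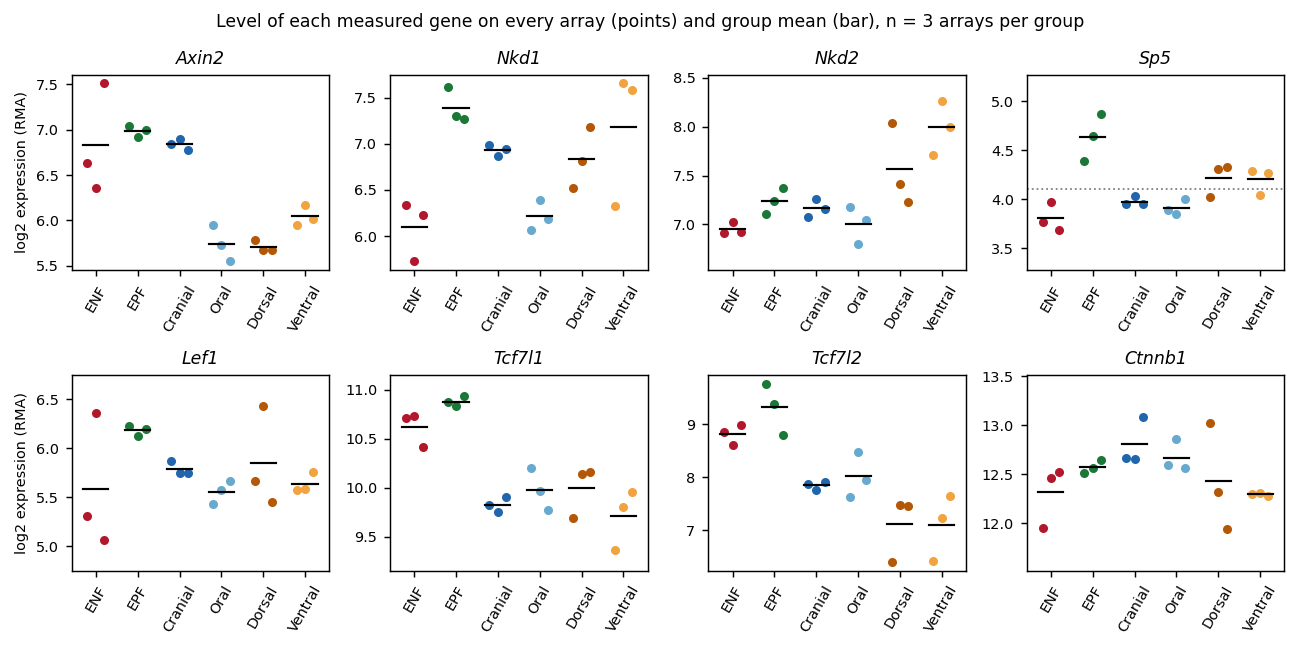
Log2 expression of the 8 measured genes on every array; each panel is a gene, points are arrays, bars are means of 3 arrays, and the dotted line in the Sp5 panel is the highest lower quartile of any array (4.10). Axin2 separates Cranial (6.78 to 6.89) from Oral, Dorsal and Ventral (5.55 to 6.17), and Sp5 stays close to the dotted line outside EPF.

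Axin2, the feedback scaffold, showed the clearest pattern among the 4 groups taken at day 30: it was high in Cranial and low in Oral, Dorsal and Ventral. Its values were 6.84, 6.89 and 6.78 in Cranial, 5.95, 5.73 and 5.55 in Oral, 5.78, 5.67 and 5.68 in Dorsal, and 5.95, 6.17 and 6.02 in Ventral. No Cranial array overlapped any array of the other 3 groups. Cranial exceeded Dorsal by 1.13 ± 0.12 (SE, log2; 2.19-fold; limma adjusted p = 0.000182) and Ventral by 0.79 ± 0.12 (1.73-fold; adjusted p = 0.00126). Oral was lower than Cranial by 1.10 ± 0.12 (2.14-fold; adjusted p = 0.000653), although both come from Wnt1Cre mice. Oral and Dorsal differed by 0.04 ± 0.12 (adjusted p = 0.873). These comparisons share arrays, so they are not independent of one another. The 3 calls with Cranial held when any single array of the compared groups was left out.

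Axin2 in ENF read 6.63, 6.36 and 7.51, and in EPF 7.04, 6.91 and 6.99. The ENF arrays spread on both sides of the EPF arrays, and the group means, 6.83 ± 0.60 (SD, n = 3) and 6.98 ± 0.07, differed by 0.15 ± 0.29 (adjusted p = 0.890). EPF exceeded Dorsal, which carries the same lineage label from the same site, by 1.27 ± 0.14 (2.42-fold; adjusted p = 0.00185). That comparison crosses the separation between the array sets and the labelled ages, which cannot be told apart from it. The order of means ran EPF, Cranial, ENF, Ventral, Oral and Dorsal over a span of 1.27, and arrays of neighbours in this order overlapped except between EPF and Cranial and between ENF and Ventral. A second Axin2 probe set was at or below the lower quartile on 17 of 18 arrays and carried none of these differences.

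Nkd1, an inducible inhibitor at Dishevelled, differed most between EPF and ENF. It measured 6.33, 5.72 and 6.23 in ENF and 7.61, 7.30 and 7.27 in EPF, without overlap. The difference of 1.30 ± 0.21 (2.46-fold) missed the threshold over all genes (adjusted p = 0.0637; unadjusted p = 0.000283). It passed when all 18 arrays shared an estimate of spread (adjusted p = 0.0222). In the other groups Nkd1 read 6.99, 6.87 and 6.95 in Cranial, 6.07, 6.39 and 6.19 in Oral, 6.52, 6.81 and 7.19 in Dorsal, and 6.32, 7.66 and 7.58 in Ventral. Oral lay below every Cranial and Dorsal array, and Ventral was divided, with array 1 among the Oral values and the other two above all other day 30 arrays. Oral minus Ventral was -0.97 ± 0.30 (adjusted p = 0.0568) and became -1.40 (adjusted p = 0.000984) without Ventral 1. Without that array Cranial minus Ventral moved from -0.25 ± 0.30 (adjusted p = 0.579) to -0.69 (adjusted p = 0.0347). Oral minus Cranial was -0.72 ± 0.30 (adjusted p = 0.545) in the fit that pools the spread of 4 groups, and passed (adjusted p = 0.000442) when only the 6 arrays concerned were fitted. The order of Nkd1 means was EPF, Ventral, Cranial, Dorsal, Oral and ENF over a span of 1.30, and of the neighbours in it only Dorsal and Oral did not overlap. The next brightest Nkd1 probe set correlated with this one at r = 0.27 over the 18 arrays (which share groups). It gave an EPF minus ENF difference of 0.26 (adjusted p = 0.796). Its Oral minus Cranial difference had the opposite sign, 0.12 (adjusted p = 0.992), and Oral minus Ventral was -0.11 (adjusted p = 0.770). On the dimmer Nkd1 probe sets Oral minus Cranial was -0.29 (adjusted p = 0.737) and -0.048 (adjusted p = 0.996). Oral minus Ventral was -0.34 (adjusted p = 0.172) and -0.24 (adjusted p = 0.333) on them.

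Nkd2, the myristoylated relative of Nkd1, had its highest mean in Ventral and its lowest in ENF. Its values were 7.71, 8.26 and 8.0 in Ventral, 8.04, 7.41 and 7.23 in Dorsal, 7.08, 7.26 and 7.15 in Cranial, and 7.18, 6.80 and 7.04 in Oral. Every Ventral array exceeded every Cranial and Oral array, while Dorsal 1 stood among the Ventral values. Nkd2 was lower in Oral than in Ventral by 0.98 ± 0.21 (1.97-fold; adjusted p = 0.00959) and lower in Cranial than in Ventral by 0.83 ± 0.21 (1.77-fold; adjusted p = 0.0203). The Cranial call was lost when Cranial 1, Cranial 3, Ventral 2 or Ventral 3 was left out (adjusted p = 0.0748, 0.0685, 0.0766 and 0.0575). On the second probe set the Oral minus Ventral difference was -1.33 (adjusted p = 0.0749) and the Cranial minus Ventral difference -0.55 (adjusted p = 0.412). Nkd2 read 6.91, 7.02 and 6.93 in ENF and 7.11, 7.24 and 7.37 in EPF. These did not overlap, and the difference of 0.29 ± 0.15 did not pass (adjusted p = 0.538). On the second and the third probe set the same difference was 1.52 (adjusted p = 0.107) and 1.29 (adjusted p = 0.171), and on the fourth 0.30 (adjusted p = 0.661). Means followed the order Ventral, Dorsal, EPF, Cranial, Oral and ENF over a span of 1.04, and all neighbours overlapped.

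Sp5, a transcription factor and direct Wnt target, was close to background in 5 of the 6 groups and highest in EPF. On no array did Sp5 exceed more than 43.0% of the probe sets, so it was dim in EPF as well. It read 3.77, 3.98 and 3.68 in ENF and 4.39, 4.65 and 4.87 in EPF. All EPF arrays lay above the ENF arrays and above all day 30 arrays, whose values ran from 3.85 to 4.33. EPF exceeded ENF by 0.83 ± 0.18 (1.77-fold), which did not pass (adjusted p = 0.148; unadjusted p = 0.00193). With all 18 arrays in the fit it did (adjusted p = 0.00377). Because 6 of 18 arrays were at or below their own lower quartile, the size of this difference is poorly determined. Oral (3.89, 3.85 and 4.0) lay below Dorsal (4.02, 4.31 and 4.33) by 0.30 ± 0.11 (adjusted p = 0.0967) and below Ventral by 0.29 ± 0.11 (adjusted p = 0.122), without overlap in either comparison. Without Dorsal 1 the Oral minus Dorsal difference was -0.40 (adjusted p = 0.0146) and the Cranial minus Dorsal difference -0.34 (adjusted p = 0.0287). The order of means ran EPF, Dorsal, Ventral, Cranial, Oral and ENF over a span of 0.83, and of the neighbours EPF and Dorsal, and Ventral and Cranial, did not overlap.

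Tcf7l2, the TCF factor that partners β-catenin in intestinal epithelium, had the widest span of group means, 2.22. It read 8.86, 8.60 and 8.99 in ENF and 9.76, 9.38 and 8.80 in EPF. The day 30 values were 7.87, 7.75 and 7.91 in Cranial, 7.62, 8.47 and 7.95 in Oral, 6.41, 7.48 and 7.45 in Dorsal, and 6.42, 7.23 and 7.64 in Ventral. On this, the brightest probe set, all ENF and EPF arrays exceeded all day 30 arrays, and the Cranial arrays lay above all Dorsal and Ventral arrays. EPF exceeded Dorsal by 2.20 ± 0.37 (4.61-fold; adjusted p = 0.00991), and EPF and ENF differed by 0.50 ± 0.26 (adjusted p = 0.543). Its means were ordered EPF, ENF, Oral, Cranial, Dorsal and Ventral, and of the neighbours ENF and Oral, and Cranial and Dorsal, did not overlap.

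On this probe set Cranial and Oral exceeded Dorsal and Ventral by 0.74 to 0.92, which did not pass (adjusted p = 0.108 to 0.172). Dorsal 1 and Ventral 1 were the lowest arrays of their groups. On the second Tcf7l2 probe set the same 4 differences passed. There the values were 8.20, 8.20 and 8.43 in Cranial, 8.97, 9.04 and 8.72 in Oral, 6.81, 6.98 and 7.16 in Dorsal, and 6.66, 7.52 and 7.33 in Ventral. Every Wnt1Cre array lay above every day 30 En1Cre array. On this second probe set ENF read 8.80, 8.35 and 8.04, and EPF 8.33, 8.47 and 8.34. All Oral arrays thus lay above all EPF arrays there, and the Cranial arrays overlapped both ENF and EPF. Cranial exceeded Dorsal by 1.29 ± 0.20 (adjusted p = 0.00177) and Ventral by 1.11 ± 0.20 (adjusted p = 0.00421). Oral exceeded Dorsal by 1.93 ± 0.20 (adjusted p = 0.000153) and Ventral by 1.74 ± 0.20 (adjusted p = 0.000311). On the third probe set, tried after the data were seen, Oral exceeded Dorsal by 1.31 (adjusted p = 0.00495) and Ventral by 1.00 (adjusted p = 0.0214), and Cranial exceeded Dorsal by 0.99 (adjusted p = 0.0200), but Cranial minus Ventral, 0.68, did not pass (adjusted p = 0.0828). The fourth, with a mean of 4.59, showed none of these site differences (r = -0.03 with the brightest over 18 arrays). Its mean was highest in Ventral (5.01), against 4.47 in Cranial, 4.68 in Oral and 4.36 in Dorsal. Cranial and Oral thus lay below Ventral there, the other way round from the brightest probe set. EPF minus Dorsal was 1.40 (adjusted p = 0.00217) on the second, 2.35 (adjusted p = 0.00371) on the third and 0.03 (adjusted p = 0.966) on the fourth. On the third, ENF 1 (6.94) lay below all Oral arrays (7.30 to 7.64).

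**Figure D2:**
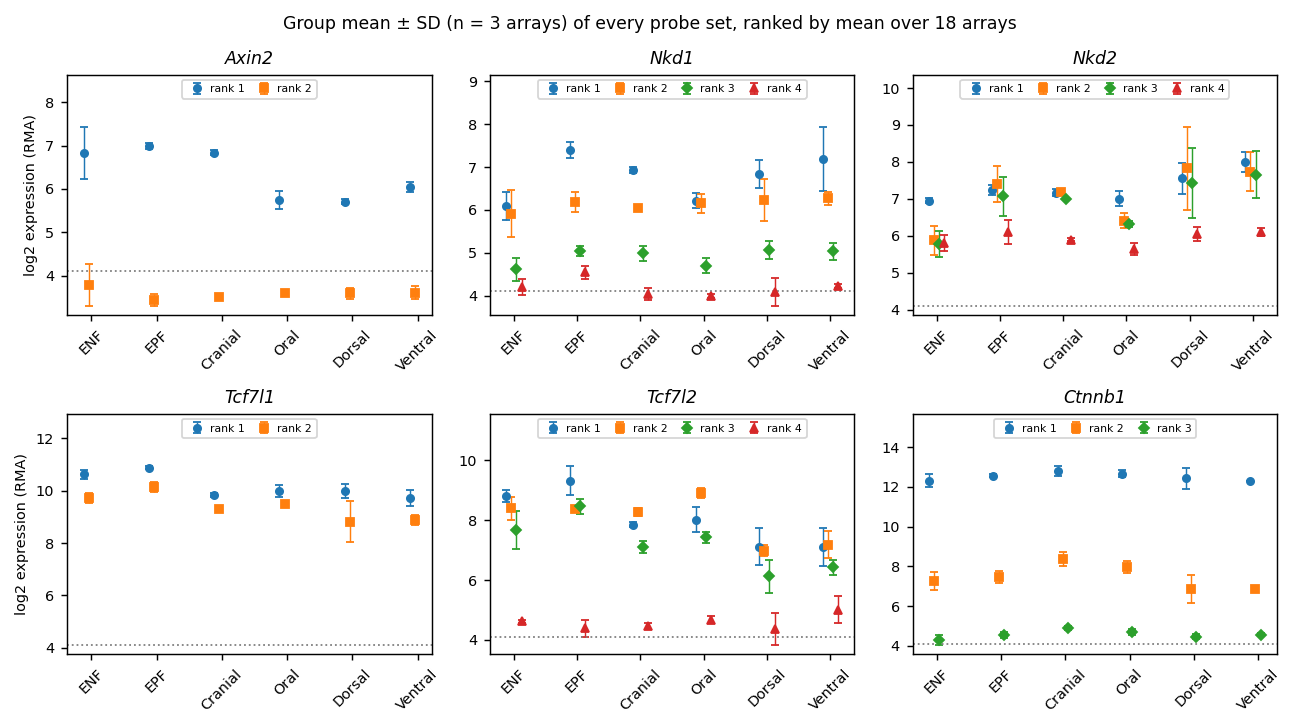
Group means ± SD (n = 3 arrays) of every single-symbol probe set of 6 genes, ranked within each gene by its mean over 18 arrays; the vertical axis is log2 expression and the dotted line is the highest lower quartile of any array (4.10). The second Tcf7l2 probe set places Cranial and Oral above Dorsal and Ventral, the second Ctnnb1 probe set shows the same order, and the second Axin2 probe set lies below the line.

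Tcf7l1, the TCF family member best known as a repressor, split mainly by array set on its brightest probe set. It read 10.71, 10.74 and 10.42 in ENF, 10.87, 10.83 and 10.94 in EPF, and 9.37 to 10.20 on the 12 day 30 arrays. ENF, EPF and the day 30 arrays formed non-overlapping ranges. EPF exceeded Dorsal (9.69, 10.14 and 10.16) by 0.88 ± 0.18 (1.85-fold; adjusted p = 0.0179). The call was lost when any of the 3 EPF arrays was left out (adjusted p = 0.0653 to 0.0785), after quantile normalization (0.79, adjusted p = 0.0911) and on the second probe set (1.33, adjusted p = 0.0594). The group means spanned 1.17. Among the day 30 groups the differences ran from -0.29 to 0.27 on this probe set and none passed. On the second probe set Oral exceeded Dorsal by 0.70, which did not pass (adjusted p = 0.136). There ENF 1 (9.51) lay below Oral 1 (9.52) and Oral 2 (9.55), so the array sets overlapped.

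Lef1, which in skin is a hallmark of dermal papilla and hair matrix, was even within some groups and scattered in others. ENF read 5.31, 6.36 and 5.06, and EPF 6.23, 6.13 and 6.20. The EPF arrays fell inside the ENF range, and the means differed by 0.60 ± 0.32 (adjusted p = 0.555). ENF 2 and Dorsal 2 (6.44) stood above the other arrays of their groups, which reached 5.31 in ENF and 5.67 in Dorsal. Cranial ran from 5.74 to 5.87, Oral from 5.43 to 5.67 and Ventral from 5.58 to 5.75. Oral and Cranial did not overlap and differed by -0.23 ± 0.21 (adjusted p = 0.939). Over the 6 groups the means spanned 0.63 and all neighbours in their order overlapped. A second Lef1 probe set was at or below the lower quartile on 17 of 18 arrays.

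Ctnnb1, the transducer itself, had the narrowest span of group means among the 8 genes, 0.51. Its values were 11.96, 12.47 and 12.53 in ENF, 12.51, 12.57 and 12.64 in EPF, 12.67, 12.66 and 13.09 in Cranial, 12.59, 12.86 and 12.56 in Oral, 13.02, 12.32 and 11.95 in Dorsal, and 12.30, 12.31 and 12.28 in Ventral. Cranial and Oral lay above all Ventral arrays, and the Dorsal arrays spanned nearly the whole range. Cranial exceeded Ventral by 0.51 ± 0.23 (adjusted p = 0.150) and Dorsal by 0.38 ± 0.23 (adjusted p = 0.283), and neither passed. After quantile normalization both passed, at 0.55 (adjusted p = 0.0226) and 0.62 (adjusted p = 0.0131), and the difference from Ventral also passed when only those 6 arrays were fitted (adjusted p = 0.0186). Without Dorsal 1 the difference from Dorsal was 0.67 (adjusted p = 0.00917) for Cranial and 0.54 (adjusted p = 0.0264) for Oral. Of the 12 day 30 arrays, Dorsal 1 had the highest summed level of dividing-cell markers (13.52) and Dorsal 3 the lowest (11.34), and the part of this in Ctnnb1 was not tested. The order of means was Cranial, Oral, EPF, Dorsal, ENF and Ventral, with all neighbours overlapping. A second, dimmer Ctnnb1 probe set gave larger differences: it read 8.08, 8.24 and 8.76 in Cranial, 7.63, 8.10 and 8.18 in Oral, 7.66, 6.64 and 6.30 in Dorsal, and 6.76, 6.91 and 6.87 in Ventral. Dorsal 1 was again the high array of its group and overlapped Oral. On it Cranial exceeded Dorsal by 1.49 ± 0.31 (adjusted p = 0.00810) and Ventral by 1.51 ± 0.31 (adjusted p = 0.00752), and Oral exceeded them by 1.11 ± 0.31 (adjusted p = 0.0321) and 1.12 ± 0.31 (adjusted p = 0.0329).

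**Figure D3:**
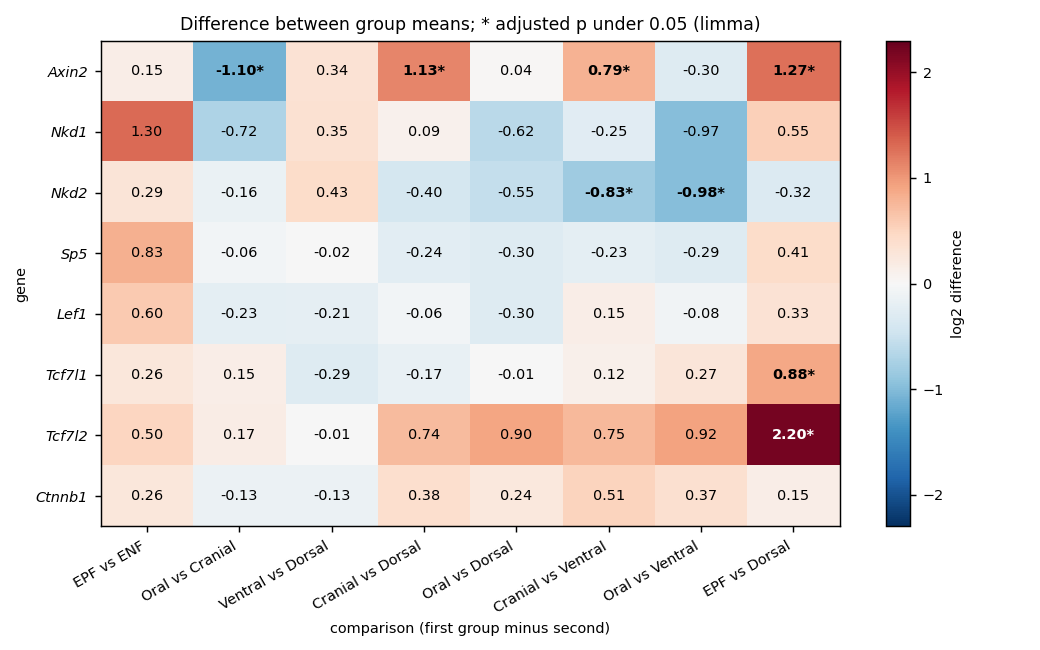
Log2 difference of group means (first group minus second) for the 8 measured genes in 8 comparisons; colour gives sign and size, and a star marks a limma adjusted p under 0.05 over 18193 genes. Axin2 carries 4 of the 8 stars, Nkd2 carries 2, and Tcf7l1 and Tcf7l2 carry 1 each, both in EPF vs Dorsal.

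Set against all genes, the EPF and ENF comparison asks how the lineages of one site differ. Here 0 of the 8 genes passed limma's test at an adjusted p under 0.05, where 0.308% of all genes did, and 2 (Nkd1 and Sp5) had an unadjusted p under 0.05, where 10.8% did. All 8 means were higher in EPF, with a median difference of 0.39 against 0.0002 over all genes. The sign of Axin2 turned without ENF 2 (-0.085) and on its second probe set (-0.34), and that of Tcf7l2 on the second (-0.020) and the fourth (-0.24) of its probe sets. Arrays did not overlap for 4 of 8 (Nkd1, Nkd2, Sp5 and Tcf7l1), and this was so for 17.0% of all genes. In the same comparison 2 of 14 measured keratinocyte markers were called lower and 4 of 9 mural markers higher in EPF, 2 of 9 skeletal muscle lineage markers were called lower, and 1 of 12 dermal papilla markers (Trps1) was called higher. Summed mural markers were 12.8 to 13.1 in ENF and 14.05 to 14.14 in EPF, and summed dermal papilla markers 12.6 to 13.3 and 13.2 to 13.6. All 12 dermal papilla markers had a higher mean in EPF, by 0.21 to 3.09 (median 1.17). For 7 of the 12 the EPF arrays lay above the ENF arrays without overlap, against 17.0% of all genes without overlap in either direction. Corin, expressed in dermal papilla, was not called (adjusted p = 0.309): it read 3.60, 6.96 and 7.22 in EPF, where 2 arrays carried the mean, and averaged 3.25 ± 0.08 in ENF. Myf5, of the muscle lineage, averaged 7.89 ± 0.98 in ENF and 2.92 ± 0.08 in EPF. The part of these cells in the differences of Nkd1 and Sp5 was not tested, and fewer cells of a type and less RNA per cell cannot be told apart in such samples.

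Between sites of one lineage, Axin2 was the 1 gene of 8 called in Oral vs Cranial, where 1.14% of all genes were called. In Ventral vs Dorsal 0 of 8 were called by limma, where 0.0275% of all genes were, and 1 (Axin2, 0.34 ± 0.12 higher in Ventral, adjusted p = 0.515) had an unadjusted p under 0.05, where 8.55% did. The 3 Axin2 arrays of Ventral lay above the 3 of Dorsal, as happened in either direction for 10.1% of all genes. The comparisons across lineages at day 30 also cross body sites and Cre lines, and these cannot be told apart. Among them, 1 of 8 genes was called in Cranial vs Dorsal (Axin2), against 18.7% of all genes, and 0 of 8 in Oral vs Dorsal, against 16.8%. In the latter, 3 (Nkd2, Sp5 and Tcf7l2) had an unadjusted p under 0.05, where 30.4% did. In Cranial vs Ventral 2 of 8 were called (Axin2 and Nkd2), against 17.9%, and in Oral vs Ventral 1 of 8 (Nkd2), against 14.6%. Arrays did not overlap for 3 of the 8 genes in Oral vs Cranial (25.9% of all genes), 2 in Cranial vs Dorsal (35.5%), 4 in Oral vs Dorsal (30.1%), 5 in Cranial vs Ventral (54.9%) and 3 in Oral vs Ventral (44.4%). EPF vs Dorsal called 3 of 8 (Axin2, Tcf7l1 and Tcf7l2), against 16.8%, and 5 of 8 did not overlap, against 36.6%. In it 9 of 9 markers of dividing cells were called lower in EPF. Also called in it were 6 of 12 fibroblast markers (all higher in EPF), 3 mural markers higher and 2 lower of 9, 2 of 14 keratinocyte markers higher, 2 endothelial markers higher and 1 lower of 10, 2 of 9 melanocyte and Schwann cell markers higher, 1 of 9 skeletal muscle lineage markers higher and 1 of 12 dermal papilla markers lower. The part of these differences in the 3 calls was not tested.

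Beyond these 8, 97 of 101 listed pathway genes were measured. Between EPF and ENF limma called 1 of them higher, where 0.275% of all genes were: Dkk2, a secreted Wnt antagonist, was higher in EPF (10.32 ± 0.23) than in ENF (7.85 ± 0.55) by 2.47 ± 0.28 (adjusted p = 0.0218). In Oral vs Cranial 3 were called lower in Oral, where 0.731% of all genes were. Lgr5, an R-spondin receptor and Wnt target, averaged 5.45 ± 0.27 in Oral and 10.56 ± 0.15 in Cranial, a difference of -5.11 ± 0.63 (adjusted p = 0.00177). The ligand Wnt4 differed by -1.90 ± 0.39 (adjusted p = 0.0490) and the receptor Fzd1 by -1.01 ± 0.18 (adjusted p = 0.0207). Of the 19 other listed targets, Lgr5 alone was called here, and their median difference was 0.06, against 0.04 over all genes. Among Axin2, Nkd1, Nkd2 and Sp5, only Axin2 was called, also lower in Oral. In Ventral vs Dorsal limma called 0 of 97, where 0.0275% of all genes were called.

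Between the Wnt1Cre and En1Cre groups of day 30, pathway genes moved both ways. Lineage, Cre line and body site differ together in these comparisons and cannot be told apart. Cranial vs Dorsal called 16 of 97 higher and 12 lower, against 11.2% and 7.45% of all genes, and Oral vs Dorsal called 13 higher and 8 lower, against 10.5% and 6.30%. Cranial vs Ventral called 19 higher and 11 lower, against 11.7% and 6.20%, and Oral vs Ventral called 17 higher and 9 lower, against 10.3% and 4.31%. These 4 comparisons share their arrays.

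Among receptors, 5 of 15 were called higher and 1 lower in Cranial vs Dorsal, where 11.2% and 7.45% of all genes were. In Oral vs Dorsal 4 were called higher and 0 lower, where 10.5% and 6.30% were. Ror1, a receptor for Wnt5a, averaged 7.15 ± 0.15 in Cranial and 7.15 ± 0.08 in Oral against 4.98 ± 0.26 in Dorsal and 4.98 ± 0.35 in Ventral. The Frizzled receptor Fzd7 was higher in Cranial than in Dorsal by 1.59 ± 0.34 (adjusted p = 0.0103). Of 19 ligands, Wnt16 alone was called higher in Cranial vs Dorsal (0.76 ± 0.23, adjusted p = 0.0408), where 11.2% of all genes were, and 4 were called lower, where 7.45% were, led by Wnt11 (-0.62 ± 0.17, adjusted p = 0.0276). In Oral vs Dorsal Wnt5a alone was called higher (2.60 ± 0.54, adjusted p = 0.00820) and Wnt2 alone lower (-0.57 ± 0.15, adjusted p = 0.0210).

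Of 14 secreted modulators, 2 were called higher and 1 lower in Cranial vs Dorsal, where 11.2% and 7.45% of all genes were. Rspo2, an R-spondin that potentiates Wnt signals, averaged 9.75 ± 0.10 in Oral and 7.91 ± 0.10 in Cranial, against 5.17 ± 1.18 in Dorsal and 5.33 ± 0.47 in Ventral. It was called in all 4 comparisons between lineages (differences of 2.58 to 4.57). Dkk2 ran the other way, with 5.50 ± 0.22 in Cranial and 5.69 ± 0.09 in Oral against 8.26 ± 1.41 in Dorsal and 8.26 ± 0.16 in Ventral, and was called lower in the same 4 comparisons.

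Of 16 genes of Dishevelled and the destruction complex, 2 were called higher and 2 lower in Cranial vs Dorsal. Of all genes, 11.2% and 7.45% were. Btrc, the ubiquitin ligase subunit that recognises β-catenin, and the scaffold Apc were called higher in Cranial than in Dorsal by 1.05 ± 0.21 (adjusted p = 0.00652) and 0.86 ± 0.12 (adjusted p = 0.000971). Axin1, the constitutive relative of Axin2, was lower by 0.70 ± 0.13 (adjusted p = 0.00414), opposite to Axin2 in the same comparison. Of 14 nuclear cofactors, 4 were called higher and 2 lower in that comparison, against the same 11.2% and 7.45% of all genes. Tbl1xr1, a part of corepressor complexes, was higher by 1.64 ± 0.18 (adjusted p = 0.000293), while its paralogue Tbl1x and the coactivator Crebbp were lower by 0.95 ± 0.13 (adjusted p = 0.00103) and 0.85 ± 0.12 (adjusted p = 0.00112).

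Of the 19 other listed targets, 2 were called higher and 2 lower in Cranial vs Dorsal, where 11.2% and 7.45% of all genes were. Myc averaged 9.35 ± 0.12 in Cranial and 8.97 ± 0.12 in Oral against 6.58 ± 0.72 in Dorsal and 6.53 ± 0.20 in Ventral, and the feedback ubiquitin ligase Znrf3 7.09 ± 0.14 and 6.77 ± 0.23 against 5.65 ± 0.48 and 5.70 ± 0.13. Both were called higher in the 4 comparisons between lineages. Apcdd1, a membrane inhibitor and Wnt target, averaged 8.55 ± 0.16 in Cranial and 8.71 ± 0.25 in Oral against 10.60 ± 0.98 in Dorsal and 10.38 ± 0.07 in Ventral and was called lower in all 4. Lgr5 was called lower in Oral than in Dorsal by 4.75 ± 0.63 (adjusted p = 0.000609) and than in Ventral by 3.56 ± 0.63 (adjusted p = 0.00366). Cd44, a surface receptor for hyaluronan, averaged 9.77 ± 0.12 in Cranial and 11.49 ± 0.34 in Dorsal and was called lower in Cranial by 1.72 ± 0.30 (adjusted p = 0.00367).

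**Figure D4:**
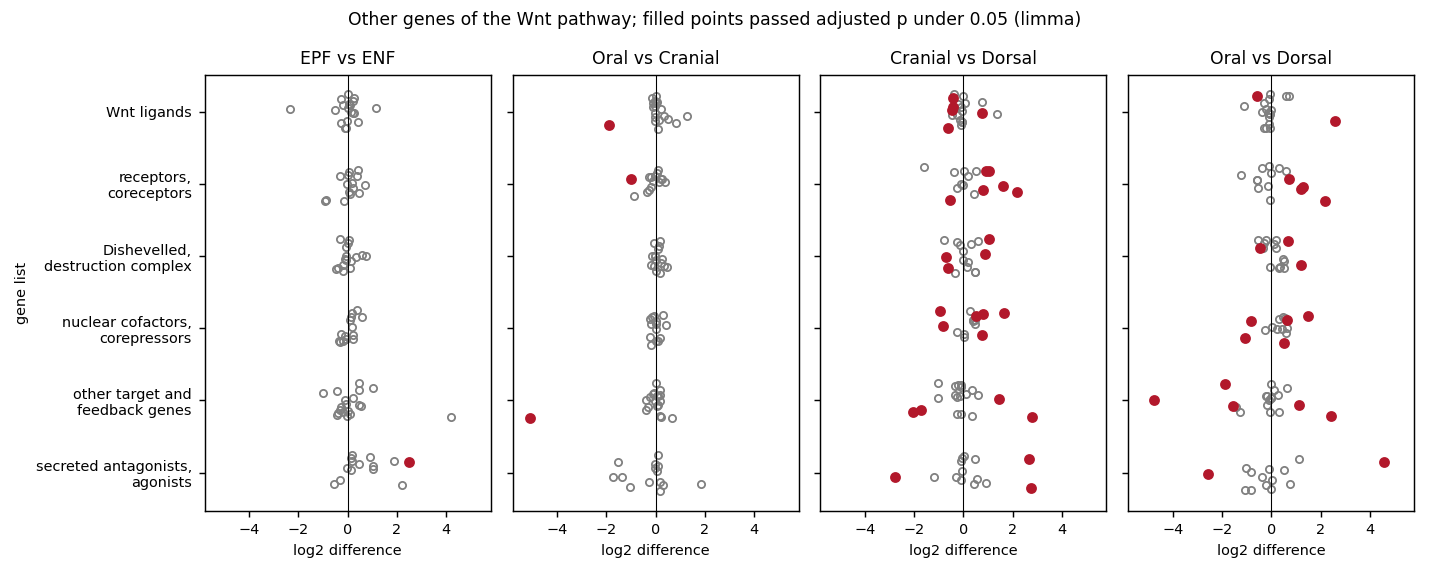
Log2 differences of the 97 other pathway genes in 4 comparisons, one row per gene list; each point is a gene, and filled points passed a limma adjusted p under 0.05 over 18193 genes. EPF vs ENF has 1 filled point (Dkk2, 2.47) and Oral vs Cranial 3 (Lgr5 at -5.11, Wnt4 at -1.90 and Fzd1 at -1.01), while both comparisons with Dorsal have filled points on either side of 0.

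EPF vs Dorsal called 18 of 97 pathway genes higher and 9 lower, against 10.9% and 5.94% of all genes. The antagonist Sfrp4 differed most, by 5.38 ± 0.47 (adjusted p = 0.000879), followed by the inhibitor Wif1 (4.78 ± 0.94, adjusted p = 0.0168) and the ligand Wnt2 (4.39 ± 0.33, adjusted p = 0.000532). Wnt4 was lower in EPF by 3.30 ± 0.44 (adjusted p = 0.00402) and Lgr5 by 3.01 ± 0.38 (adjusted p = 0.00322). Wnt2 and Sfrp4 were as high in ENF (9.51 ± 0.54 and 11.65 ± 0.28) as in EPF (9.44 ± 0.64 and 11.83 ± 0.80), within their spread, and below 7 in all groups of day 30.

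Genes with the most similar pattern were ranked for the 5 measured genes whose means spanned at least 1 log2 unit. The measure was Pearson's r over the 18 arrays after each array set was centred, among 2688 genes with an SD of at least 0.5, and it describes these arrays, which share groups. Axin2 was most like Ddx60 (0.87), Tmem178 (0.86) and Abcc9 (0.82), and Nkd1 like Cyp2f2 (0.91), Col23a1 (0.87) and Plxdc1 (0.87). The nearest gene to Nkd2 was Frzb (0.90), a secreted Frizzled-related protein, followed by Flt1 (0.88) and Ptgir (0.88). For Flt1 the r was -0.22 within the 6 ENF and EPF arrays and 0.94 within the other 12. For Tcf7l1 they were Pltp (0.78), Tril (0.77) and Cilp (0.76), and for Tcf7l2 Ptpdc1 (0.87), Adgrl2 (0.86) and Selenow (0.86; 0.51 within ENF and EPF). Among the 8 genes themselves the highest r was between Nkd1 and Sp5 (0.61) and the lowest between Nkd2 and Tcf7l2 (-0.61). Within ENF and EPF these were 0.79 and 0.17, and within the other 12 arrays 0.38 and -0.72.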

How the data were processed

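Expression of 18 sorted samples was measured on Affymetrix Mouse Genome 430 2.0 arrays. Per the series' design text, the authors normalized them by RMA and quantile normalization in R, and they deposited log2 expression values. The submitters' processing notes also name RMA. Versions, and whether 1 run held all arrays, are not given. Of 45101 probe sets, 64 were controls, 34945 carried 1 gene symbol, 932 several and 9160 none; only single-symbol probe sets were used, giving 18193 genes. No dim probe set was removed. Groups and array numbers came from the sample titles.

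In R 4.3.3, the log2 values were tested by lmFit and eBayes of limma 3.58.1, with Benjamini-Hochberg adjustment over 18193 genes, and called at an adjusted p under 0.05. EPF and ENF, and EPF and Dorsal, were fitted on their 6 arrays, and the other 6 comparisons in 1 fit of 12. A script using limma was tested on simulated data. Marker sums are log2 of summed linear values. From each pathway list, called genes were named, at most 2 per direction and comparison by size, and all 9 genes were named throughout. The genes and lists were chosen with earlier results of these data known. The number of arrays limits the precision. Promoter windows came from RefSeq (GRCm38.p6), matched by symbol for all 9 genes. Tables and plots were made in Python 3.11.15 (matplotlib 3.10.9, numpy 2.4.6, pandas 2.3.3). Alternatives covered the arrays fitted, the prior, a mean above 5, quantile normalization, a replicate block, other probe sets and leaving out arrays.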

Additional observations from a re-analysis of the deposited data

How the results depend on the processing

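Of 864 differences of the 8 genes recomputed under alternatives, 760 kept their direction and side of the threshold, 15 were no longer called, 36 became called, 49 uncalled differences changed sign, and 4 called differences changed sign. Those 4 were Axin2 on its second, near-background probe set (Oral minus Cranial 0.090, Cranial minus Dorsal -0.078, Cranial minus Ventral -0.10, EPF minus Dorsal -0.15). A change of the prior, the gene filter, the block or the arrays outside a comparison leaves the difference itself unchanged. Under those alternatives only the call could move. With all 18 arrays in 1 fit the number of the 8 genes called was 2 in EPF vs ENF, 2 in Oral vs Ventral and 4 in EPF vs Dorsal. With only the 6 arrays concerned it was 2 in Oral vs Cranial, 3 in Cranial vs Ventral and 2 in Oral vs Ventral. With quantile normalization it was 2 in Cranial vs Dorsal, 2 in Oral vs Dorsal, 3 in Cranial vs Ventral, 2 in Oral vs Ventral and 2 in EPF vs Dorsal, and with genes of mean above 5 it was 2 in Oral vs Ventral. On second probe sets it was 0 in Oral vs Cranial, where limma left 1 gene at an unadjusted p under 0.05, 2 in Cranial vs Dorsal, 2 in Oral vs Dorsal, 2 in Oral vs Ventral and 1 in EPF vs Dorsal. Using the dimmer probe sets beyond the second was chosen after seeing the data. Leaving out 1 array gave 0 to 0 genes in EPF vs ENF, 1 to 1 in Oral vs Cranial, 0 to 0 in Ventral vs Dorsal, 1 to 3 in Cranial vs Dorsal, 0 to 2 in Oral vs Dorsal, 1 to 3 in Cranial vs Ventral, 1 to 2 in Oral vs Ventral and 2 to 3 in EPF vs Dorsal. Without ENF 1 and EPF 2 together 0 of 8 were called in EPF vs ENF.

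Same-numbered arrays deviated together at r = -0.38 to 0.30, and no comparison had all 3 above 0.1, so the numbers were not taken as pairs. With the replicate number as a block, 1 gene was called in Oral vs Dorsal and 3 in Oral vs Ventral, and the counts elsewhere did not move. Over all genes the block gave 21 calls in place of 56 in EPF vs ENF and 2 in place of 5 in Ventral vs Dorsal. In Oral vs Dorsal it gave 2760 in place of 3065.

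Over all genes, EPF vs ENF gave 460 calls with all arrays, 88 with an intensity trend and robust prior, 4 without ENF 1 and EPF 2, and 4 (without EPF 2) to 130 (without ENF 3) with 1 array left out. All arrays gave 5678 in EPF vs Dorsal in place of 3055. Quantile normalization gave 3516 in Cranial vs Dorsal in place of 3393, and 3380 in Oral vs Dorsal in place of 3065. Fits of only 6 arrays gave 1795 in Oral vs Cranial (207), 1242 in Cranial vs Dorsal (3393), 1065 in Oral vs Dorsal (3065), 6684 in Cranial vs Ventral (3251), 4925 in Oral vs Ventral (2665) and 0 in Ventral vs Dorsal (5; 533 genes by limma at an unadjusted p under 0.05), with the counts of the fit of 12 in parentheses. Leaving out 1 array gave 111 to 129 in Oral vs Cranial, 3 to 161 in Ventral vs Dorsal (161 without Dorsal 2), 1645 to 6148 in Cranial vs Dorsal and 1770 to 5623 in Oral vs Dorsal (6148 and 5623 without Dorsal 1), 1641 to 2350 in Cranial vs Ventral, 1420 to 2270 in Oral vs Ventral and 1474 to 4061 in EPF vs Dorsal. Fits of only 6 arrays thus gave more calls in some comparisons and fewer in others. Among the 6 groups the median SD per gene was largest for Dorsal (0.28) and smallest for Cranial (0.10). The cause of these shifts in the number of calls was not tested.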
